A study of Mus musculus with 12 samples.

Results

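The genes described here are 9 genes of the phosphoinositide 3-kinase (PI3 kinase) and AKT pathway, namely Pik3ca, Pik3cb, Pik3cd, Pik3cg, Pik3r1, Pik3r5, Pik3ap1, Akt1 and Akt2. They were taken by symbol from 3 comparison tables, and all 9 were found once in each, among 20884 genes listed in all 3 tables. RNA-seq had been made from 12 libraries of mouse bone marrow-derived macrophages, with 3 libraries in each of 4 groups. The groups were macrophages after 4 h of monophosphoryl lipid A (MPLA), macrophages after 24 h of MPLA, macrophages taken 3 d after the end of MPLA priming, and controls that never saw MPLA. MPLA, a detoxified form of bacterial lipid A, is an agonist of Toll-like receptor 4. The cells of all groups carried the C57BL/6 strain label, came from male mice aged 8 to 16 weeks, and were grown for 7 days in medium with the growth factor M-CSF at 10 ng/mL, which stayed in the culture throughout. The protocol text also mentions mice that lack MyD88 or TRIF, but no label places any of the 12 libraries in such a group. The labels leave unsaid the length of priming in the 3 d group, the time at which controls were harvested, and whether the 3 libraries of each group had separate mice or dishes behind them, so p-values cover the spread among libraries only, and that spread may be technical.

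PI3 kinases add a phosphate to a membrane lipid and so make PIP3, a docking site for proteins such as the AKT kinases, which are then switched on by PDK1 and by mTOR complex 2. Class IA enzymes pair the catalytic subunits Pik3ca, Pik3cb or Pik3cd with regulatory subunits such as Pik3r1, and answer mainly to tyrosine kinases, while the class IB enzyme pairs Pik3cg with Pik3r5 or Pik3r6 and answers to G-protein-coupled receptors. In macrophages the pathway carries the M-CSF signal for survival and is also engaged by Toll-like receptors, for which Pik3ap1, also called BCAP, serves as an adaptor.

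All values below are log2 changes of MPLA over control of the DESeq2 step in the authors' deposited tables, except where edgeR is named, and a gene is said to rise or fall when its DESeq2 adjusted p there was under 0.05. The tables hold 1 value per gene and comparison and none per library, so neither levels nor the spread of single libraries are given, and the depth per library is unknown. Where a 95% interval is given, it was computed here from the deposited change and p-value, taking the p as that of a Wald test, DESeq2's usual one, which the sources used here do not state. In bulk RNA a change in the share of a cell type and a change of RNA per cell cannot be told apart. Of 9 macrophage symbols looked up, Emr1, the older symbol of Adgre1, was not listed, and the other 8 had reads in both groups at each time. Of these 8 markers 6 were higher and 1 lower at 4 h, 4 and 4 at 24 h, and 5 and 3 at 3 d with DESeq2, and at 24 h Adgre1 had 2.15 and Fcgr1 3.70, while Csf1r had -1.52, Lyz2 -1.50 and Mertk -1.69 in the authors' deposited table. Cd68 (-0.84), Itgam (-0.70) and Mertk (-0.14), higher at 4 h with DESeq2, had negative edgeR values there. Adgre1 (0.28), Cd14 (1.41) and Fcgr1 (2.13) stayed positive at 4 h with edgeR. At 24 h Itgam turned too, from 0.31 to -0.10. By DESeq2 31.8%, 32.4% and 29.5% of all tested genes were higher at 4 h, 24 h and 3 d. Lower were 31.0%, 32.2% and 25.8%. Of 24 markers of other cell types 5 were not listed at each time and 14, 12 and 16 had reads in both groups at 4 h, 24 h and 3 d. Of those 24 markers, 6, 4 and 3 were higher and 0, 2 and 0 lower in the authors' deposited tables with DESeq2 (1, 3 and 0 lower at an unadjusted p under 0.05, and 3, 5 and 0 lower with edgeR), the largest change being that of the lymphocyte kinase gene Lck (7.19 at 4 h). Of 5 neutrophil markers only Camp was called by DESeq2, higher at 24 h (3.49) and 3 d (1.43) in the authors' deposited tables. Ly6g was listed at no time and Mpo only at 4 h, and Elane and Ngp had no reads after MPLA at 24 h. The endothelial marker Kdr was higher at all times (4.50, 3.87 and 1.49), while Tek, another one, had no DESeq2 adjusted p at any time. Cdh5, also an endothelial marker, was higher at 4 h (3.07) and 24 h (2.10) and not called at 3 d. Of the dendritic cell markers Xcr1 was higher at 4 h (3.93) and 24 h (3.08), and Zbtb46 higher at 4 h (1.19) but lower at 24 h (-1.50). The other dendritic cell markers, Flt3 and Cd209a, were called at no time by DESeq2. Cd209a had no reads after MPLA at any time, and Flt3 had none at 24 h. Of the T cell markers Cd3g was listed at no time, while Cd3d at 24 h and 3 d and Cd3e at 3 d had reads after MPLA and none in controls. These Cd3d and Cd3e values had no DESeq2 adjusted p, and no Cd3 gene was listed at 4 h, when Lck rose. The part of other cells in the changes below was not tested. The 3 tables share their controls and were normalized separately, so values at different times stand side by side with no test of their difference.

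The direction of a modest change depended on the scaling. Over all tested genes the median in the authors' deposited tables was -0.04 at 4 h, -0.05 at 24 h and -0.02 at 3 d with DESeq2, and -0.97, -0.46 and -0.15 with edgeR. The median difference of edgeR minus DESeq2 values was -0.94 at 4 h, -0.41 at 24 h and -0.13 at 3 d, so edgeR values are added for the 9 genes at 4 h, for list counts and medians, and where a sign turns. The difference between the changes of 2 of the 9 genes within 1 table hardly depends on the scaling. For some other genes the tools lay further apart, such as Camp at 3 d, with 1.43 by DESeq2 and 2.97 by edgeR.

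After 4 h of MPLA, 6 of the 9 genes rose and 3 fell, and 5 changed at least 2-fold. Over all 17523 genes tested in the authors' deposited table for 4 h, 62.9% were called, 31.8% higher and 31.0% lower, and 36.6% were called with a change of at least 2-fold, 18.1% higher and 18.5% lower. At 24 h 5 of the 9 rose and 4 fell, 3 of them at least 2-fold, where 64.6% of 16442 genes were called, 32.4% higher and 32.2% lower, and 29.2% reached that size, 12.8% higher and 16.4% lower. At 3 d 4 rose and 5 fell, 2 of them at least 2-fold, where 55.2% of 15111 genes were called, 29.5% higher and 25.8% lower, and 11.6% reached that size, 6.38% higher and 5.20% lower. By edgeR 4 rose and 4 fell at 4 h and at 24 h, and 4 rose and 5 fell at 3 d in the authors' deposited tables, where 63.6%, 58.0% and 43.3% of all listed genes were called, with 13.5%, 16.2% and 15.5% higher and 50.1%, 41.8% and 27.7% lower. With so many genes called, the call alone says little about these genes, and their sizes and order carry the description. The median of the 9 was 0.88, 0.35 and -0.10 in the authors' deposited tables at 4 h, 24 h and 3 d, and -0.059, -0.060 and -0.23 with edgeR. The genes fell into 3 patterns, with Pik3r5, Pik3ap1 and Pik3cb higher at all 3 times, Akt1 and Pik3ca lower at all 3 times, and Pik3cd, Pik3cg, Pik3r1 and Akt2 with a direction that differed between times. The 5 genes of the first pair of patterns had the same calls with edgeR. By baySeq all 9 were called at 4 h and at 24 h, but at 3 d it called only Pik3r5, Pik3ap1 and Pik3cb, so none of the 5 genes lower at 3 d was called by all 3 tools. Lower calls were lost over the whole 3 d table, where 1086 genes were lower by all 3 tools, against 3892 by DESeq2. For higher genes these counts were 2635 and 4456. The share of all genes called by baySeq on its own was not computed. With DESeq2 the change of 7 genes was largest at 4 h and that of Pik3ca and Akt2 at 24 h, while with edgeR it was largest at 4 h for 5 genes and at 24 h for Pik3cb, Pik3r1, Pik3ap1 and Akt2. With neither was a change largest at 3 d.

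**Figure D1:**
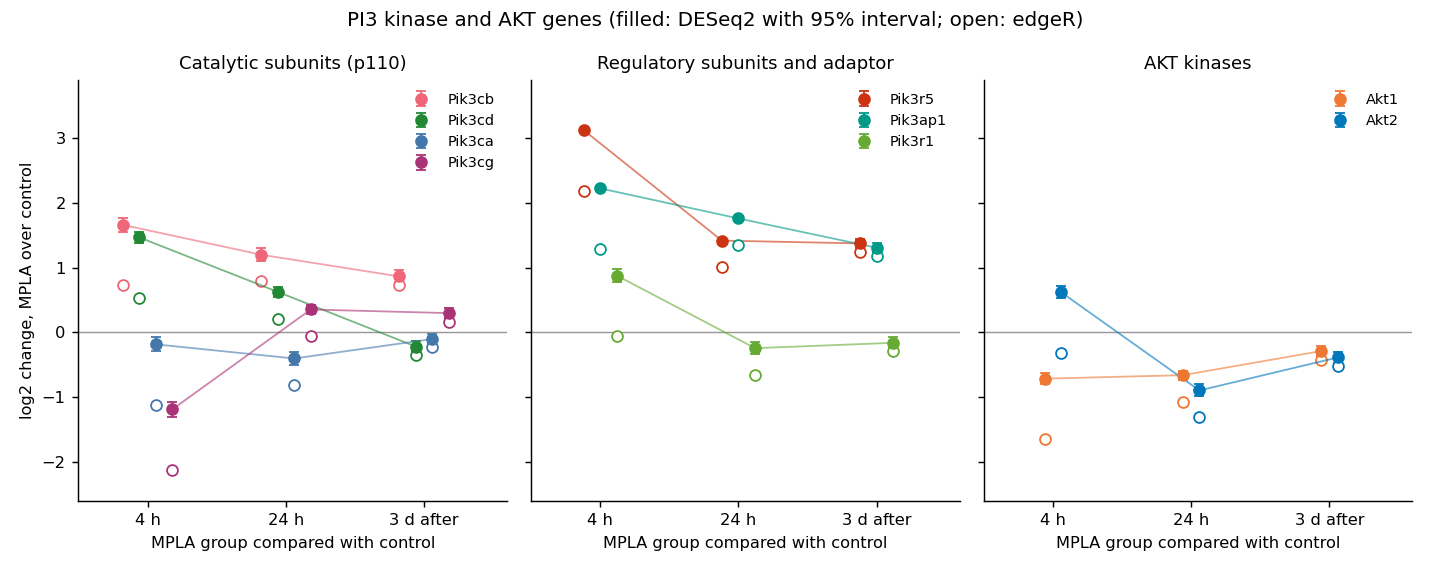
The plot of log2 changes by time shows MPLA over control on the vertical axis for the 4 h, 24 h and 3 d groups, with catalytic subunits, regulatory subunits with the adaptor, and AKT kinases in separate panels. Filled points are DESeq2 values with 95% intervals computed from the deposited p-values (no interval is drawn where the p is stored as 0), open points are edgeR values, and lines only join the values of a gene. Pik3r5 is highest at 4 h with 3.12, and Pik3cg lowest with -1.19.

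Pik3r5 encodes the regulatory subunit p101 of the class IB enzyme, which ties the gamma catalytic subunit to G-protein signals (ENSMUSG00000020901, chromosome 11, 68432121 to 68497849, plus strand, GRCm38). After 4 h of MPLA it stood 8.71-fold above controls in the authors' deposited table (log2 change 3.12, DESeq2 adjusted p stored as 0), and 4.56-fold above them with edgeR. At 24 h its log2 change in the authors' deposited table was 1.42, and at 3 d it was 1.37 (95% interval 1.30 to 1.45, DESeq2 adjusted p = 7.48e-304). When priming had been over for 3 days the gene was 2.59-fold above controls in the authors' deposited table. Among all tested genes it ranked above 93.8% at 4 h, above 89.6% at 24 h and above 96.0% at 3 d.

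Pik3ap1 encodes the adaptor BCAP, which offers binding sites for the class IA regulatory subunit and links Toll-like and B cell receptors to PI3 kinase (ENSMUSG00000025017, chromosome 19, 41272377 to 41385102, minus strand, GRCm38). In the authors' deposited tables it was 4.67-fold higher at 4 h, 3.38-fold higher at 24 h and 2.47-fold higher at 3 d. The log2 changes there were 2.22, 1.76 and 1.31, against 1.29, 1.35 and 1.18 with edgeR. Its gap to Pik3r5 turned between times, since Pik3r5 led by 0.90 at 4 h (95% interval 0.70 to 1.10) while Pik3ap1 led by 0.34 at 24 h (0.23 to 0.46), both intervals taken with the largest error that a p stored as 0 allows. At 3 d the gap of 0.07 between Pik3r5 and Pik3ap1 had an interval of -0.03 to 0.17 and was thus not told from 0.

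Pik3r1 encodes the alpha regulatory subunits of class IA, among them p85 alpha, which hold the catalytic subunit stable and quiet until a receptor is engaged (ENSMUSG00000041417, chromosome 13, 101680563 to 101768217, minus strand, GRCm38). After 4 h the authors' deposited table had it 1.84-fold higher with DESeq2 (0.88, 95% interval 0.78 to 0.97, adjusted p = 1.20e-71), while its edgeR log2 change was -0.059 with an adjusted p of 0.258. At 24 h it was lower, at -0.24 (-0.34 to -0.15) in the authors' deposited table and -0.66 with edgeR. The 3 d value was -0.16 (-0.25 to -0.07) in the authors' deposited table and -0.29 with edgeR.

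The promoter windows of 4 of these genes are printed here because Pik3r5 and Pik3ap1 rose together while Pik3cg and Akt1 fell together at 4 h. They are RefSeq windows of 300 bases on GRCm38.p6, from 250 bases before to 50 after an annotated start, printed along the gene's own strand, and all 9 genes had at least 1 such window, 17 in all. Capitals mark matches on either strand to 5 motifs, namely GGGANTTTC of NF-kappaB, GAAANNGAA of interferon response elements, GTAAACA of FOXO factors, GAGGAAGT of PU.1 and TGANTCA of AP-1, and no match overlapped another. The windows are chr11:68431875-68432174 (plus) for Pik3r5, chr19:41385053-41385352 (minus) for Pik3ap1, chr12:32208421-32208720 (minus) for the downstream of 2 windows of Pik3cg, and chr12:112674835-112675134 (minus) for the upstream of 2 windows of Akt1.
Pik3r5: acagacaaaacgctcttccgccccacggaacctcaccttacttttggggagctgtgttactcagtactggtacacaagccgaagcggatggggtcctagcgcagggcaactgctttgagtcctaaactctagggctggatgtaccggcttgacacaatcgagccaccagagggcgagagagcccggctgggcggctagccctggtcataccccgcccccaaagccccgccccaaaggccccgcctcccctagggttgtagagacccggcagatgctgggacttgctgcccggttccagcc
Pik3ap1: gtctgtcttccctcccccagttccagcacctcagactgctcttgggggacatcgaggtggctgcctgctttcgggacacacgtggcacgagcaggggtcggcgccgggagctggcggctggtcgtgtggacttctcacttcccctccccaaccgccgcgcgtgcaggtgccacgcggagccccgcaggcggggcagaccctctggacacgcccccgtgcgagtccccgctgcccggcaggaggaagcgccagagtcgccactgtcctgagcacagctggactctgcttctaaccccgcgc
Pik3cg: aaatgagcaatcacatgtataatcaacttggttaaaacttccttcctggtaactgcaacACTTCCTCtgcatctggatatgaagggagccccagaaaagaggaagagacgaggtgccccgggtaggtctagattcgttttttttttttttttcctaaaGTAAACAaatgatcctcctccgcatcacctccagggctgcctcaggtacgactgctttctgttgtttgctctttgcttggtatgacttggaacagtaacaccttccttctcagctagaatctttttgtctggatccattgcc
Akt1: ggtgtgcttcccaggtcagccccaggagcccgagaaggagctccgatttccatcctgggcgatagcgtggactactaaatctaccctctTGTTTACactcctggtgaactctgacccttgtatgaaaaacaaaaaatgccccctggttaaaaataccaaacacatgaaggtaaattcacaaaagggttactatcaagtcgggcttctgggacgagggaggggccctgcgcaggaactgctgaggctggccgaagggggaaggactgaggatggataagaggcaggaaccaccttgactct
The window of Pik3cg held 1 PU.1 match, read on the opposite strand, and 1 FOXO match, and that of Akt1 held 1 FOXO match on the opposite strand. Those of Pik3r5 and Pik3ap1 held no match to the 5 motifs, which says only that these letters are not in these windows. The FOXO letters occurred in 3.65% of all 32851 RefSeq windows of this length, the PU.1 letters in 3.20%, the AP-1 letters in 7.81%, the interferon response letters in 8.56% and the NF-kappaB letters in 1.11%. Among the other windows that of Pik3ca held 1 AP-1 match, the most upstream of 4 for Akt2 held 1 match to the interferon response letters, and the upstream, overlapping window of Pik3cg held the same PU.1 match. The downstream window of Akt1 held no match, so for Pik3cg and Akt1 the window printed is the one with more matches.

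Pik3cb encodes the beta catalytic subunit, which both tyrosine kinases and G proteins can engage (ENSMUSG00000032462, chromosome 9, 99036654 to 99140621, minus strand, GRCm38). At 4 h the authors' deposited table had it 3.16-fold higher (log2 change 1.66, 95% interval 1.56 to 1.76, DESeq2 adjusted p = 8.42e-215), and its edgeR log2 change was 0.73. At 24 h the authors' deposited table gave 1.20 (1.10 to 1.30) and at 3 d 0.86 (0.77 to 0.96), and edgeR gave 0.79 and 0.73. Of its 50-base transcript windows 5.19% are shared with the gene Gm12992, so a small part of its reads may be ambiguous.

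Pik3cd encodes the delta catalytic subunit, the class IA isoform found mainly in leukocytes (ENSMUSG00000039936, chromosome 4, 149649168 to 149702571, minus strand, GRCm38). Its log2 change in the authors' deposited tables was 1.47 at 4 h (1.38 to 1.55, or 0.53 with edgeR), 0.63 at 24 h (0.55 to 0.70) and -0.22 at 3 d (-0.30 to -0.13). It was called higher, higher and lower by DESeq2 and by edgeR, but baySeq did not call it at 3 d. In folds it was 2.76-fold higher at 4 h, 1.54-fold higher at 24 h and 1.16-fold lower at 3 d in the authors' deposited tables.

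Pik3ca encodes the alpha catalytic subunit, which most tissues use for insulin and growth factor signals (ENSMUSG00000027665, chromosome 3, 32397671 to 32468486, plus strand, GRCm38). It was modestly lower throughout in the authors' deposited tables, with -0.19 at 4 h (-0.29 to -0.08), -0.40 at 24 h (-0.50 to -0.31) and -0.10 at 3 d (-0.19 to -0.02). The 3 d call is the weakest of the 27, with a DESeq2 adjusted p of 0.0319 in the authors' deposited table. With edgeR the 4 h value was -1.12.

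Pik3cg encodes the gamma catalytic subunit of class IB, which is known for its role in the chemotaxis of myeloid cells (ENSMUSG00000020573, chromosome 12, 32173473 to 32208659, minus strand, GRCm38). At 4 h the authors' deposited table had it 2.28-fold lower (log2 change -1.19, -1.30 to -1.07, DESeq2 adjusted p = 6.56e-90), and 4.37-fold lower with edgeR. At 24 h it stood at 0.35 (0.28 to 0.43) with DESeq2 and at -0.060 with edgeR (adjusted p = 0.110) in that same deposited table of the authors. At 3 d the authors' deposited table had it 1.23-fold higher, at 0.30 (0.22 to 0.37) and 0.17 with edgeR.

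The subunits of the class IB enzyme thus moved apart at 4 h. Pik3r5 exceeded its partner Pik3cg by a log2 difference of 4.31 in the authors' deposited table, a 19.9-fold shift of their ratio, and by 1.06 and 1.08 at 24 h and 3 d. The other class IB regulatory subunit, Pik3r6, exceeded Pik3cg by 2.96 at 4 h and by 0.25 at 24 h and lay 0.62 below it at 3 d in the authors' deposited tables. In class IA the regulatory subunit Pik3r1 rose at 4 h with DESeq2, as did its possible partners Pik3cb and Pik3cd, while Pik3ca fell. Pik3r1 exceeded Pik3ca by 1.06 at 4 h and 0.16 at 24 h and lay 0.06 below it at 3 d. Among the class IA catalytic subunits, which are alternatives to each other, Pik3cb exceeded Pik3ca by 1.85, 1.60 and 0.97 at 4 h, 24 h and 3 d in the authors' deposited tables. Pik3cd exceeded Pik3ca by 1.65 and 1.03 at 4 h and 24 h and lay 0.12 below it at 3 d, and edgeR gaps differed from these by at most 0.00328. These are differences of changes and say nothing of which subunit was the more abundant.

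**Figure D2:**
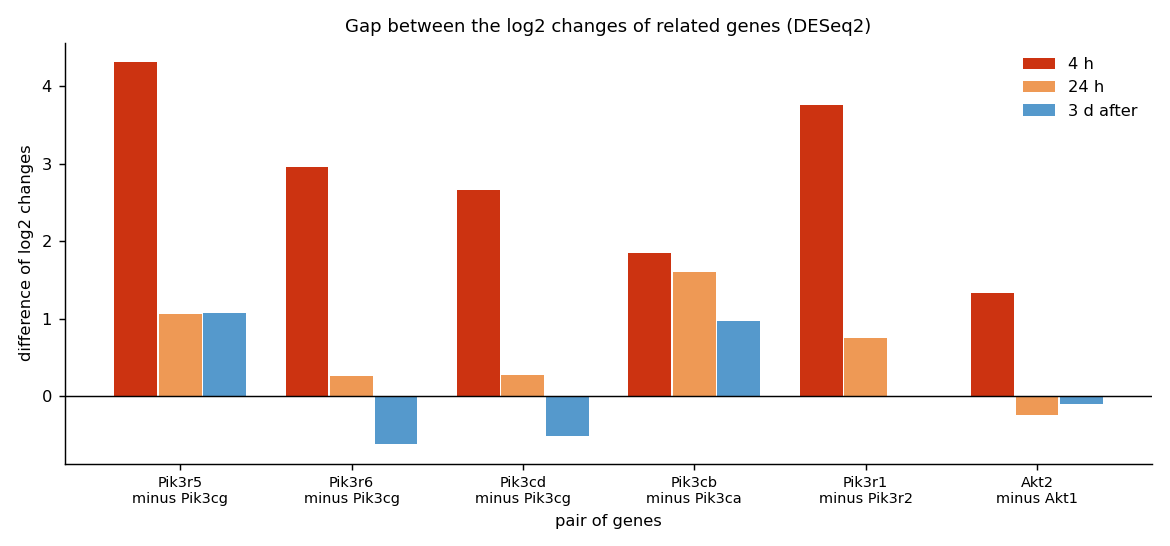
The plot of gaps shows, for 6 pairs of related genes, the log2 change of the first minus that of the second at 4 h, 24 h and 3 d as bars from 0. Every bar is above 0 at 4 h, from 1.33 for Akt2 minus Akt1 to 4.31 for Pik3r5 minus Pik3cg, and the Pik3r1 minus Pik3r2 gap at 3 d is too small to see. The sign of a bar depends on which gene of the pair is put first, so it carries no result by itself. Some computed pairs are not drawn, among them Pik3r1 minus Pik3r3, with -0.92 at 4 h.

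Akt1 encodes the AKT isoform tied most closely to growth and survival (ENSMUSG00000001729, chromosome 12, 112653821 to 112674884, minus strand, GRCm38). It fell at all 3 times in the authors' deposited tables, to 1.64-fold below controls at 4 h, 1.58-fold at 24 h and 1.22-fold at 3 d. The log2 changes there were -0.71 (-0.80 to -0.63), -0.66 (-0.73 to -0.59) and -0.29 (-0.37 to -0.21), or -1.65, -1.07 and -0.42 with edgeR.

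Akt2 encodes the isoform best known for insulin-driven glucose uptake (ENSMUSG00000004056, chromosome 7, 27591552 to 27640826, plus strand, GRCm38). At 4 h it was higher with DESeq2, at 0.62 (0.53 to 0.71, adjusted p = 1.27e-40), and with edgeR it was lower, at -0.32 (adjusted p = 1.53e-14), in the same deposited table of the authors. At 24 h the authors' deposited table had it 1.86-fold lower, at -0.90 (-0.99 to -0.80), and 1.31-fold lower at 3 d, at -0.39 (-0.47 to -0.30). Relative to the change of Akt1, a gap that hardly depends on the scaling, Akt2 stood 1.33 higher at 4 h, 0.24 lower at 24 h and 0.10 lower at 3 d, and the interval of the last gap reached 0 (Akt1 minus Akt2, -0.02 to 0.21). The pseudogene Akt2-ps holds 9.76% of the 50-base windows of Akt2, and the deposited log2 changes of Akt2-ps were 0.78, -0.75 and -0.45 with DESeq2 adjusted p-values of 0.120, 0.203 and 0.270, while edgeR called Akt2-ps lower at 24 h and 3 d.

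Ordered by size, the 9 genes at 4 h in the authors' deposited table ran Pik3r5, Pik3ap1, Pik3cb, Pik3cd, Pik3r1, Akt2, Pik3ca, Akt1 and Pik3cg, and all 8 neighbouring pairs had 95% intervals of their gap that left out 0. At 24 h the order was Pik3ap1, Pik3r5, Pik3cb, Pik3cd, Pik3cg, Pik3r1, Pik3ca, Akt1 and Akt2, again with all 8 pairs apart. At 3 d only 3 of 8 pairs were apart, since Pik3r5 and Pik3ap1 could not be told from each other, nor could neighbours in the run Pik3ca, Pik3r1, Pik3cd, Akt1 and Akt2. The range from the lowest to the highest of the 9 narrowed in these tables, with 4.31 at 4 h, 2.66 at 24 h and 1.76 at 3 d. Over all tested genes the 5th to 95th percentiles ran from -2.86 to 3.46 at 4 h, from -2.65 to 2.59 at 24 h and from -1.02 to 1.20 at 3 d. Pik3r5 and Pik3ap1 lay above that range at 3 d and within it at 4 h and 24 h.

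**Figure D3:**
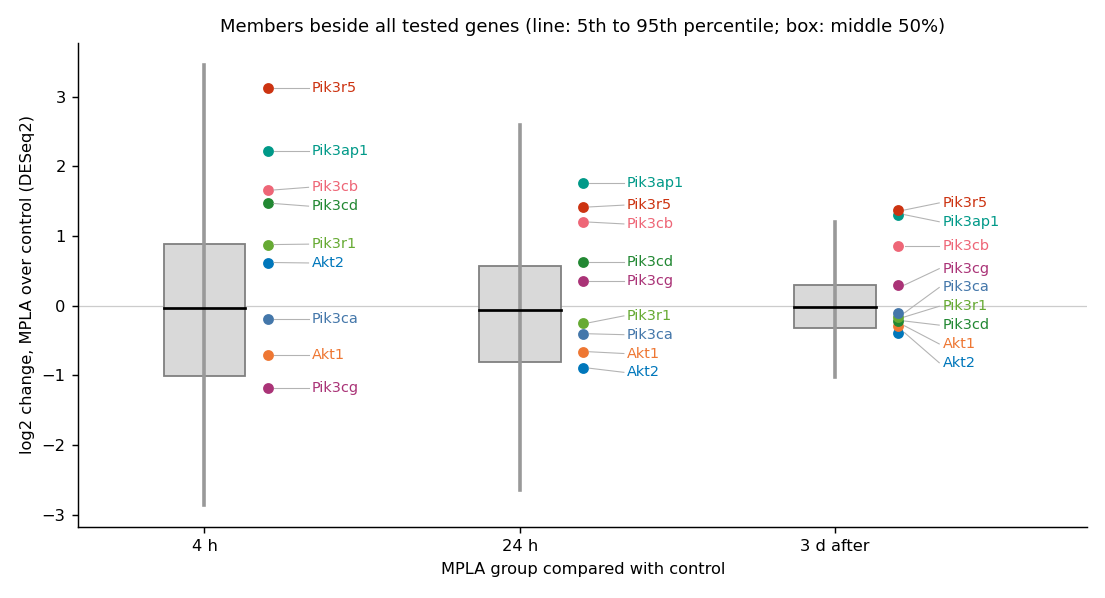
The plot of members beside all tested genes shows DESeq2 log2 changes of MPLA over control at each time, with grey lines from the 5th to the 95th percentile of tested genes, boxes for the middle 50% and a black bar for the median. Coloured points are the 9 genes, and at 3 d Pik3r5 (1.37) and Pik3ap1 (1.31) stand above the grey line, which ends at 1.20.

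By Euclidean distance over the 3 log2 changes, among 15038 genes tested at all times, the genes nearest to Pik3r5 in the authors' deposited tables were Rasgef1b (3.36, 1.50 and 1.29), Zhx2 (3.34, 1.56 and 1.44) and Mllt6 (3.12, 1.82 and 1.32), at distances of 0.263, 0.273 and 0.406. Those nearest to Pik3ap1 were Bcl2l1 (2.34, 1.75 and 1.35), Cybb (2.18, 1.71 and 1.19) and Micall2 (2.12, 1.83 and 1.42), at distances of 0.121, 0.134 and 0.172. These are likenesses over only 3 comparisons with shared controls.

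Of 5 further genes of class I signalling 3 rose and 2 fell at 4 h and at 24 h, and 2 rose and 3 fell at 3 d, in the authors' deposited tables and with both tools. Their median was 1.77, 0.61 and -0.16, or 0.83, 0.20 and -0.29 with edgeR. All tested genes split in direction too, with 31.8%, 32.4% and 29.5% higher by DESeq2 at the 3 times. The shares lower were 31.0%, 32.2% and 25.8%. By edgeR 13.5%, 16.2% and 15.5% of all listed genes were higher and 50.1%, 41.8% and 27.7% lower. Pik3r2, which encodes the beta regulatory subunit of class IA, had -2.88 at 4 h in the authors' deposited table, 3.76 below Pik3r1, and at 3 d the values of Pik3r1 and Pik3r2 were both -0.16. Pik3r3, the gamma regulatory subunit, was highest of the 5 at 24 h (1.72) and 3 d (0.97) in the authors' deposited tables. Pik3ip1, a membrane protein that inhibits PI3 kinase, was lowest of the 5 at 24 h (-3.54, DESeq2 adjusted p = 1.63e-116) and at 3 d (-1.60) in the authors' deposited tables.

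Class II and III PI3 kinases serve membrane traffic and autophagy. Of 5 such genes 4 were listed, and 3 fell at 4 h, 2 at 24 h and 1 at 3 d in the authors' deposited tables, with 0 higher by DESeq2 or edgeR at any time and 0 higher at an unadjusted DESeq2 p under 0.05. Their median was -0.62, -0.56 and 0.035, or -1.56, -0.97 and -0.095 with edgeR. At 4 h Pik3c2a was lowest (-1.03) and Pik3r4 the least changed of those called (-0.46) in the authors' deposited table. Pik3c3, which encodes the class III catalytic subunit VPS34, had -0.56 at 24 h and -0.26 at 3 d in the authors' deposited tables. Of all tested genes 31.8%, 32.4% and 29.5% were higher with DESeq2 at 4 h, 24 h and 3 d. With edgeR 13.5%, 16.2% and 15.5% of all listed genes were higher.

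Phosphatases that remove PIP3 or its products were mostly lower at 4 h and 24 h. Of all genes tested by DESeq2, 31.0% and 32.2% were lower at these times, and of all listed genes 50.1% and 41.8% with edgeR. Of 8 genes 1 rose and 6 fell at 4 h and at 24 h, and 2 rose and 3 fell at 3 d in the authors' deposited tables, against 0 and 8, 0 and 8, and 2 and 5 with edgeR. Their median was -0.75, -0.29 and -0.00091, or -1.69, -0.70 and -0.13 with edgeR. Inpp5j had -4.32 at 4 h, -1.45 at 24 h and 1.31 at 3 d in the authors' deposited tables. Inppl1, also called SHIP2, was the 1 that rose at 4 h with DESeq2 (0.75), while edgeR called it lower (-0.19), in the table that the authors deposited. Inpp4b, highest at 3 d with 1.72 in the authors' deposited table, acts on a product of PIP3 breakdown.

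Counts for kinases and phosphatases that act on AKT itself differed between the tools, as did those of all genes. Among all called genes 50.6%, 50.2% and 53.4% were higher with DESeq2 at 4 h, 24 h and 3 d. With edgeR these shares were 21.2%, 27.9% and 35.9%. Of 12 genes 8 rose and 3 fell at 4 h, 10 rose and 0 fell at 24 h, and 6 rose and 1 fell at 3 d in the authors' deposited tables, against 5 and 6, 6 and 3, and 5 and 3 with edgeR, and 0 fell at 24 h at an unadjusted DESeq2 p under 0.05. The median of this list was 0.69, 0.75 and 0.099, or -0.24, 0.34 and -0.031 with edgeR. Rictor, the defining subunit of mTOR complex 2, was highest at 4 h, with 2.62 in the authors' deposited table and 1.69 with edgeR. Phlpp1, a phosphatase that removes the phosphate mTOR complex 2 adds to AKT, was highest at 3 d with 1.45 in the authors' deposited table. Trib3, a pseudokinase that binds AKT, had -2.07 at 4 h, 2.99 at 24 h and 1.05 at 3 d in the authors' deposited tables. Mapkap1 was the least changed of those called at 24 h (0.26) in the authors' deposited table, where edgeR had it lower (-0.16), and Phlpp2 was lowest at 3 d (-0.28).

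Receptors and adaptors that feed PI3 kinase were mostly lower at 4 h and 24 h. At these times 31.0% and 32.2% of all tested genes were lower with DESeq2, and 50.1% and 41.8% of all listed genes with edgeR. Of 11 genes 3 rose and 7 fell at 4 h, 1 rose and 7 fell at 24 h, and 4 rose and 5 fell at 3 d in the authors' deposited tables, while edgeR gave 0 and 11, 0 and 10, and 3 and 6. Their median was -1.01, -1.11 and -0.097, or -1.94, -1.52 and -0.23 with edgeR. The docking proteins Gab3 (-4.52 at 4 h) and Gab1 (-2.99 at 24 h and -1.54 at 3 d) were lowest in the authors' deposited tables. Igf1r, the receptor for insulin-like growth factor, was highest at 4 h with DESeq2 (0.67) and lower with edgeR (-0.26), and Cbl, a ubiquitin ligase that is also an adaptor, was highest at 24 h (0.47) but not called with edgeR, both in the authors' deposited tables. Irs2, an insulin receptor substrate, was highest at 3 d with 0.50 in the authors' deposited table.

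Genes listed as PIP3-binding effectors split in direction, as all genes did. Of all genes tested by DESeq2, 31.8%, 32.4% and 29.5% were higher at 4 h, 24 h and 3 d. Lower were 31.0%, 32.2% and 25.8%. With edgeR 13.5%, 16.2% and 15.5% of all listed genes were higher and 50.1%, 41.8% and 27.7% lower. The list is a loose one of effectors downstream of PI3 kinase, and not all of its products are known to bind PIP3 itself. Of 11 genes 4 rose and 5 fell at 4 h, 8 rose and 2 fell at 24 h, and 6 rose and 3 fell at 3 d in the authors' deposited tables, while edgeR gave 2 and 9, 4 and 4, and 5 and 5. Their median was -0.017, 0.38 and 0.14, or -0.95, -0.036 and 0.015 with edgeR. Sgk3, a kinase related to AKT, was highest at 4 h, with 3.59 in the authors' deposited table. Vav1, a guanine nucleotide exchange factor, was highest at 24 h (1.46), and Sgk1, another relative of AKT, at 3 d (1.35) in the authors' deposited tables. Arap3, a GTPase-activating protein, was lowest at 4 h (-2.55) and 24 h (-3.20), and Dapp1, an adaptor, at 3 d (-0.89) in the authors' deposited tables.

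Transcripts of AKT substrates were mostly lower, with 1 of 11 genes higher and 10 lower at 4 h, 1 and 7 at 24 h, and 2 and 6 at 3 d in the authors' deposited tables, or 0 and 11, 0 and 10, and 2 and 7 with edgeR. The median of these 11 was -1.34, -0.28 and -0.22 in the authors' deposited tables, or -2.27, -0.69 and -0.34 with edgeR. Foxo3, a transcription factor that AKT keeps out of the nucleus, was lowest at 4 h (-4.35) and 3 d (-0.79), and Tbc1d4, a regulator of glucose transporter traffic, at 24 h (-3.66) in the authors' deposited tables. Gsk3a was highest at each time with 0.25, 0.42 and 0.31 in the authors' deposited tables, but edgeR called it lower at 4 h (-0.69) and did not call it at 24 h. Genes known as FOXO targets were mostly lower too, with 4 of 18 higher and 11 lower at 4 h, 3 and 14 at 24 h, and 6 and 10 at 3 d in the authors' deposited tables, where 17 were tested, or 4 and 13, 3 and 14, and 4 and 11 with edgeR. Their median was -1.67, -1.02 and -0.32, or -2.61, -1.44 and -0.44 with edgeR. Sesn1, which restrains mTOR complex 1, was lowest at all times, with -4.90, -4.21 and -1.41 in the authors' deposited tables. Sod2, a mitochondrial superoxide dismutase that is also a known NF-kappaB target, was highest with 4.42, 4.44 and 2.39 in the authors' deposited tables. Beside both lists, 31.0%, 32.2% and 25.8% of all tested genes were lower with DESeq2 at 4 h, 24 h and 3 d. With edgeR 50.1%, 41.8% and 27.7% of all listed genes were lower.

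Together the 8 lists hold 79 genes, 2 of them in 2 lists, and 24 rose and 45 fell at 4 h, 27 and 38 at 24 h, and 27 and 32 at 3 d in the authors' deposited tables. With edgeR these were 14 and 61, 16 and 52, and 22 and 41 in the authors' deposited tables. The shares of all genes called in each direction are those given above beside the 9 genes. The median of those tested was -0.46, -0.14 and -0.01 in the authors' deposited tables, or -1.40, -0.55 and -0.14 with edgeR.

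**Figure D4:**
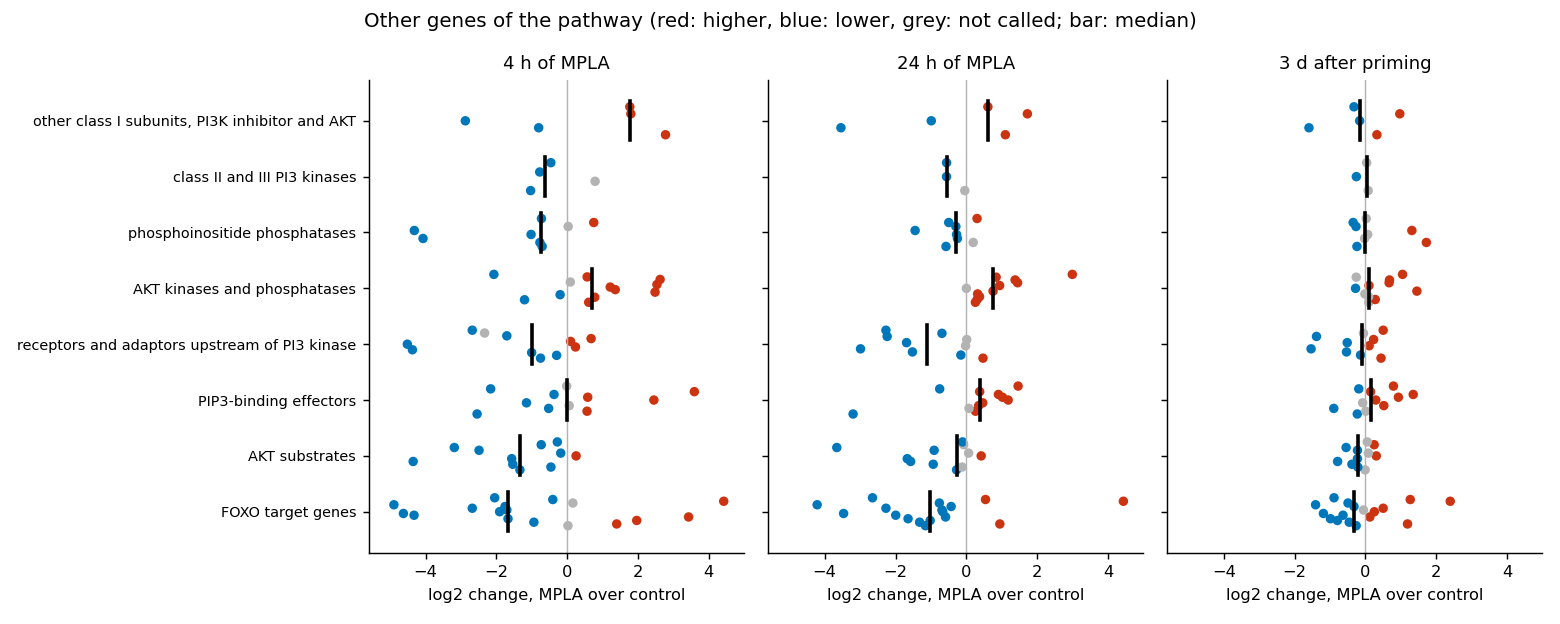
The plot of other pathway genes shows the log2 change of MPLA over control (DESeq2) on the horizontal axis for the tested genes of 8 lists at 4 h, 24 h and 3 d. Red points were called higher, blue lower and grey not called, black bars are list medians, and the spread narrows to values between -1.60 and 2.39 at 3 d.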

How the data were processed

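The 12 libraries were made from polyadenylated RNA with a stranded kit, per the labels' protocols. Per the submitters' processing notes, TopHat2, HTSeq, edgeR, DESeq2 and DESeq were used with the build mm10, without versions. The annotation, the counting settings and the use of strand are not given in the sources used here. Per the file headers, the authors deposited log2 fold changes and p-values, with adjusted p-values, from DESeq2 and from edgeR, an unscaled log2 ratio, and an adjusted likelihood from baySeq, for 3 tables of 1 MPLA group against the same controls. No counts are in the tables used here.

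The deposited log2 values run control over MPLA, so their sign was turned to MPLA over control. The direction came from the order of the groups and from Il6, Tnf, Il12b, Nos2 and Cxcl10, all negative as deposited in every table (Il12b at 3 d by only -0.13). Calls used the authors' DESeq2 adjusted p under 0.05 over all genes of a table, and NA was kept as not tested. Intervals were computed from the change and the p-value as for a Wald test, a step tested on simulated data. The simulated p-values came from that same formula, so this checks the computing only. It cannot show that the deposited p-values are those of a Wald test. Gaps between genes treat their errors as independent.

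The members, lists and tests were chosen with earlier results of these data known. Named besides the members are the called genes with the highest and lowest change in each list and the 3 nearest patterns to the 2 most changed members; some genes that this rule names are not reported here. Pik3r2 and Pik3r6 beside their partners, Inpp5j at 3 d, Trib3 at 3 d and the named cell type markers were added after their values were seen. Coordinates and shared windows come from GENCODE M21 (GRCm38, the assembly of mm10). The NF-kappaB and interferon response motifs were shortened by 1 base after a first search; this added the Akt2 match and no other. Python 3.11.15, pandas 2.3.3 and scipy 1.17.1 were used.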

Additional observations from a re-analysis of the deposited data

How the results depend on the processing

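No paired analysis was possible because the tables hold no values per library, and leaving out single replicates was not run for the same reason. Of the 27 member values, 24 kept direction and call with the authors' edgeR columns, and 3 reversed, namely Pik3r1 at 4 h (-0.059), Akt2 at 4 h (-0.32) and Pik3cg at 24 h (-0.060). All 27 kept their direction once edgeR values were recentred on the median of tested genes. For these 9 genes the tools differ by nearly a constant within a table, so recentring nearly returns their DESeq2 values and is no separate check. With p-values adjusted over all deposited genes all 27 calls held, and at an adjusted p under 0.01 all but Pik3ca at 3 d. The median of the 9 genes was -0.059, -0.060 and -0.23 with edgeR at 4 h, 24 h and 3 d, reversed at the first pair of times, and 0.91, 0.40 and -0.088 after recentring. With a change of at least 2-fold required, 5, 3 and 2 members, 42, 28 and 13 list genes and 6415, 4805 and 1750 of all genes were called at 4 h, 24 h and 3 d. Required from DESeq2, edgeR and baySeq alike, the 3 d counts were 3 members, 27 list genes and 3721 genes, against 9, 59 and 8348 with DESeq2 alone. The 3 members were Pik3cb, Pik3r5 and Pik3ap1. The share of higher genes among all called was 50.6%, 50.2% and 53.4% with DESeq2 and 21.2%, 27.9% and 35.9% with edgeR. Depth is unknown. The constant between edgeR and unscaled values gives 0.859, 0.934 and 2.32 for the scale of MPLA libraries over controls at 4 h, 24 h and 3 d. That is a ratio of depth only if edgeR scaled by total reads, which the sources used here do not state. The cause of these differences between tools was not tested.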
